A study of Mus musculus with 9 samples.

Results

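The retinoic acid genes described here are 9 genes of binding, synthesis, breakdown and nuclear reception: Crabp1, Crabp2, Aldh1a2, Aldh1a3, Cyp26b1, Rara, Rarb, Rarg and Rxra. They were chosen by a measured value, the higher Crabp2 level in Sfpq-/- than in control cortex, so the Sfpq-/- against control values below are a description of these arrays and carry no p-value for these 9 genes. Members were found as the probe sets that the platform annotation gives to each gene alone, 140 of the 1256831 probe sets on the array. All 9 genes had a gene level, among 16854 genes in all. Of their 140 probe sets, 122 were kept by a filter on dim signal and 18 were left out.

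Affymetrix exon arrays had been run on embryonic mouse cerebral cortex at E13.5, with 1 array per sample and 3 samples per group. The groups were embryos labelled Sfpq-/- (knock-out of both copies), embryos labelled Sfpq+/- and controls labelled wild type. Sfpq encodes a nuclear RNA-binding protein. The note on RNA extraction names Sfpq+/- repeatedly and Sfpq-/- nowhere, so the groups follow the sample titles. The labels give no allele, Cre driver, strain, litter or sex for any group, and do not say whether samples of 1 group are littermates. The p-values therefore rest on the variation among these arrays, which may in part be technical.

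Retinoic acid is made from vitamin A in a pair of oxidation steps. Retinol is first turned into retinal, and retinaldehyde dehydrogenases of the Aldh1a family then make retinoic acid, which Cyp26 enzymes break down. Inside cells it is carried by the binding proteins Crabp1 and Crabp2. Crabp2 is known for delivering it to the nucleus, where dimers of a retinoic acid receptor (Rara, Rarb, Rarg) and a retinoid X receptor (Rxra, Rxrb, Rxrg) bind response elements in target genes. In the embryonic forebrain the meninges and the ganglionic eminences are known sources of retinoic acid.

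All values are log2 signals, and the level of a gene is the mean of its kept probe sets. Array medians lay between 5.648 and 5.697, and probe sets with a mean of 5.64 or less over the 9 arrays were left out. Sfpq was checked first: over all 23 of its probe sets it averaged 8.98 ± 0.27 in Sfpq-/-, 10.25 ± 0.24 in Sfpq+/- and 10.14 ± 0.23 in control cortex (SD, n = 3 each). It was lower in Sfpq-/- than in control by a log2 difference of -1.15 (limma adjusted p = 0.000787). The Sfpq+/- minus control difference was 0.12 (limma adjusted p = 0.9). Over the 12 probe sets with a control mean above 10, which were picked by their signal, the differences from control were -1.96 in Sfpq-/- and -0.13 in Sfpq+/-. The Sfpq signal therefore fits the label of the Sfpq-/- arrays and does not show the loss of a copy on the arrays labelled Sfpq+/-, and Sfpq+/- stands below for that label only. The 11 cortical marker genes with a level each had a mean of 8.78 or more over the arrays, so these markers fit the labelled tissue. In limma's test, with p adjusted over all genes by the Benjamini-Hochberg method and called under 0.05, 12.1% of all genes passed in Sfpq-/- against control (5.98% higher and 6.12% lower), 11.8% in Sfpq-/- against Sfpq+/- and 0% in Sfpq+/- against control.

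In Sfpq-/- against control cortex 2 of the 9 genes, Crabp2 and Cyp26b1, were among the genes that limma called, both higher, against 12.1% of all genes (5.98% higher, 6.12% lower). Of the 9 differences 7 were positive and 2 negative, with a median of 0.15, where the median of all genes was 0.03. The arrays did not overlap for 5 of the 9 genes (Crabp2, Cyp26b1, Aldh1a2 and Rara higher, Aldh1a3 lower), against 26.9% of all genes (16.1% higher, 10.8% lower). For Aldh1a3 the gap was very small, from 7.8698 on the highest Sfpq-/- array to 7.8699 on the lowest control array. Because this contrast chose the set, nothing is read from these counts.

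**Figure D1:**
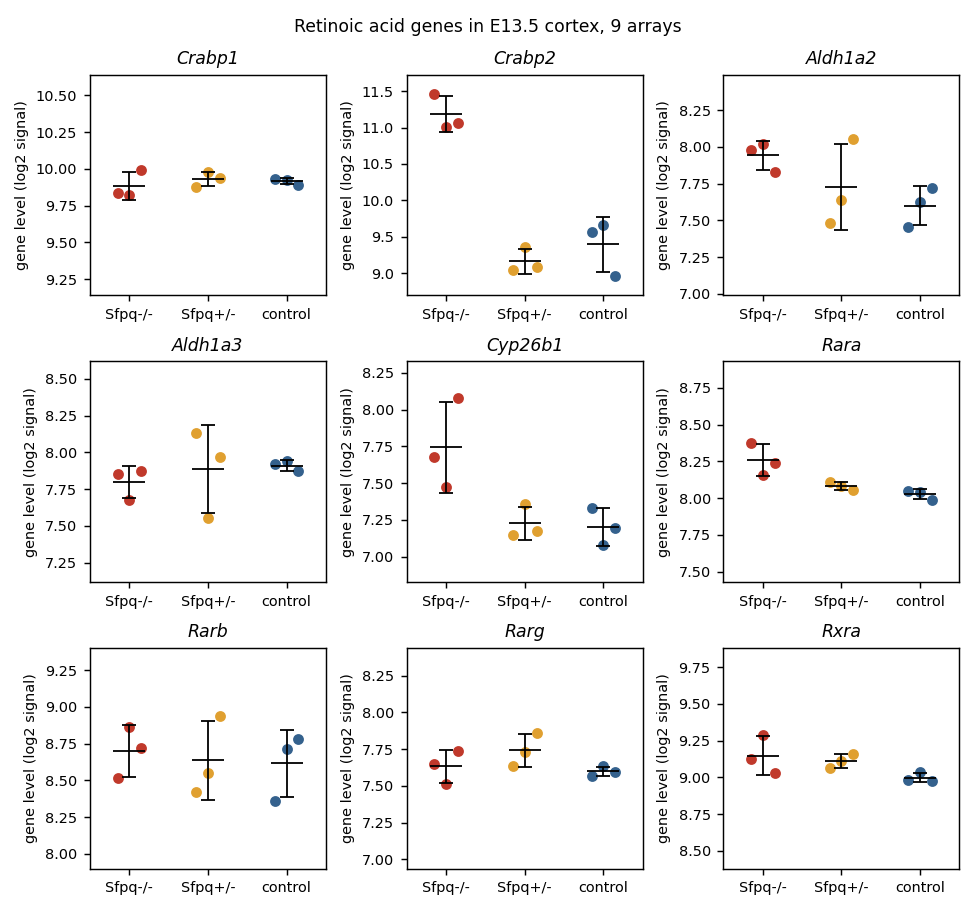
Level of each of the 9 genes (y axis, log2 signal) on the 3 arrays of each group, in the order Sfpq-/-, Sfpq+/- and control; points are arrays in replicate order, the long bar is the group mean and the whiskers 1 SD. The 3 Sfpq-/- points of Crabp2 lie at 11.01 or above and all other Crabp2 points at 9.66 or below, while the 3 groups of Crabp1 lie within 9.82 and 9.99.

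Crabp2 read 11.47, 11.01 and 11.07 on the Sfpq-/- arrays, 9.04, 9.36 and 9.09 on the Sfpq+/- arrays, and 9.57, 9.66 and 8.96 on the control arrays. Every Sfpq-/- array stood above every other array by more than 1 log2 unit, and the Sfpq+/- and control arrays overlapped. The Sfpq-/- mean was 3.44-fold the control mean (log2 difference 1.78, SE 0.18), the 8th largest positive difference of the 16854 genes. Against Sfpq+/- cortex it was 4.05-fold higher (log2 difference 2.02, SE 0.18). Among control arrays, replicate 3 was the low one, and without it the Sfpq-/- minus control difference was 1.56.

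All 6 Crabp2 probe sets were higher in Sfpq-/-. Their Sfpq-/- minus control differences ran from 1.48 to 2.18 with a median of 1.72. On each of the 6 the Sfpq-/- arrays lay above all others, while the Sfpq+/- and control arrays overlapped. The share of all probe sets without overlap was not counted. The largest belonged to probe set 5448070, which read 11.07, 10.57 and 10.14 on Sfpq-/- arrays, against 8.73, 9.01 and 7.53 on control arrays. The smallest belonged to probe set 5598645, with 9.67, 9.23 and 9.80 on Sfpq-/- arrays, against 8.20, 8.11 and 7.96 on control arrays. The lowest single reading of any Crabp2 probe set was 7.53, above the limit for dim probe sets, so Crabp2 did not enter the analysis through its Sfpq-/- arrays alone. All 6 were among the probe sets that limma called in Sfpq-/- against control, where 1.75% of 628415 kept probe sets were (0.561% higher, 1.19% lower), and in Sfpq-/- against Sfpq+/-, where 1.93% were (0.425% higher, 1.5% lower). These calls restate the Crabp2 values that chose the set, read on the same arrays, and are given as a description. No probe set of the other 8 genes was called in any contrast. Probe sets of a gene were read on the same arrays, so counts below of those that point the same way are not independent readings.

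Crabp1, the paralog of Crabp2, stayed within a narrow band. It read 9.84, 9.82 and 9.99 on the Sfpq-/- arrays, 9.88, 9.98 and 9.94 on the Sfpq+/- arrays, and 9.93, 9.92 and 9.89 on the control arrays. The groups overlapped, and the Sfpq-/- minus control difference was -0.03 (SE 0.07). Of its 7 probe sets 2 were higher and 5 lower in Sfpq-/-, within -0.15 and 0.26. The Sfpq-/- minus Sfpq+/- difference was -0.05, with a 95% interval from -0.21 to 0.12 (limma adjusted p = 0.77).

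**Figure D2:**
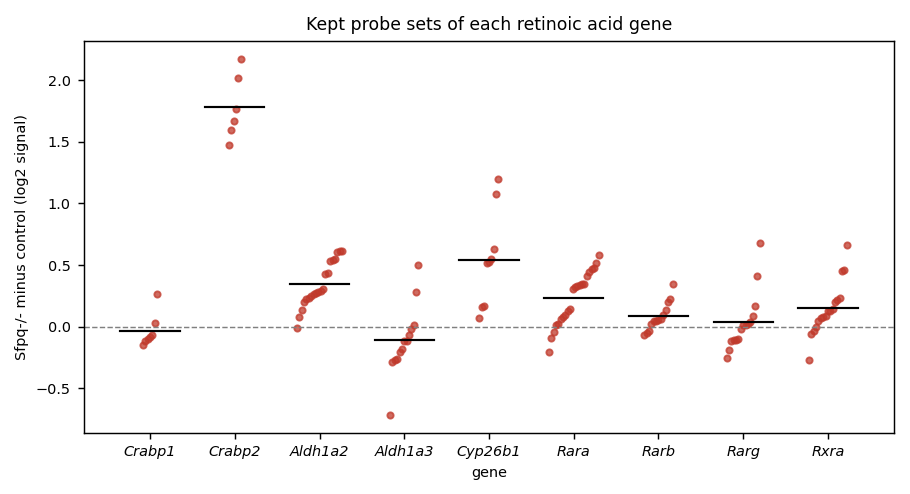
Sfpq-/- minus control difference (y axis, log2 signal) of each kept probe set of the 9 genes, with a point per probe set in rising order and a bar at the difference of the gene level. The 6 Crabp2 points lie between 1.48 and 2.18, apart from those of Crabp1, whereas the 9 Cyp26b1 points spread from 0.07 to 1.2.

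Among the synthesis enzymes Aldh1a2, the retinaldehyde dehydrogenase known for making retinoic acid in the early embryo and in the meninges, read 7.98, 8.02 and 7.83 on Sfpq-/- arrays, 7.48, 7.64 and 8.05 on Sfpq+/- arrays, and 7.46, 7.63 and 7.72 on control arrays. The Sfpq-/- arrays lay above the controls, but Sfpq+/- replicate 3 was the highest of all 9 arrays. The difference was 0.34 (SE 0.13) against control, and 19 of 20 kept probe sets pointed the same way, the 1 exception being probe set 5445472, at -0.01. Against Sfpq+/- cortex the difference was 0.22, with a 95% interval from -0.08 to 0.51 (limma adjusted p = 0.383). These are bulk samples, in which more cells of a type and more RNA per cell cannot be told apart.

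Aldh1a3, which makes retinoic acid in the lateral ganglionic eminence and the olfactory region, had a small negative difference that did not exceed its SE. It read 7.85, 7.67 and 7.87 on Sfpq-/- arrays, 8.13, 7.55 and 7.97 on Sfpq+/- arrays, and 7.92, 7.94 and 7.87 on control arrays. The Sfpq+/- arrays held both the highest and the lowest value. The Sfpq-/- minus control difference was -0.11 (SE 0.13), with 10 of 13 kept probe sets lower, from -0.71 for probe set 5333995 to 0.50 for probe set 4852053. Probe set 5333995 was dim (control mean 6.30), while the brightest, probe set 4639286 (control mean 11.00), was higher by 0.28. Of its 20 probe sets Aldh1a3 had 7 left out as dim. Against Sfpq+/- the difference was -0.09, with a 95% interval from -0.37 to 0.20 (limma adjusted p = 0.752).

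Cyp26b1, an enzyme that inactivates retinoic acid, read 7.68, 7.48 and 8.08 on the Sfpq-/- arrays, 7.15, 7.36 and 7.18 on the Sfpq+/- arrays, and 7.33, 7.08 and 7.20 on the control arrays. All Sfpq-/- arrays lay above all others, with Sfpq-/- replicate 3 the highest and replicate 2 close to the top of the other groups. The difference was 0.54 (SE 0.14, 1.46-fold) against control and 0.52 (SE 0.14) against Sfpq+/-. The difference from Sfpq+/- passed limma's test (adjusted p = 0.0332), in a contrast that shares its Sfpq-/- arrays with the one that chose the set. With single arrays left out it failed in 4 of 6 fits: adjusted p was 0.127 without Sfpq+/- replicate 1, 0.102 without Sfpq+/- replicate 3, 0.0738 without Sfpq-/- replicate 1 and 0.0618 without Sfpq-/- replicate 3. It also ended with no filter on dim probe sets (adjusted p = 0.178), with a stricter one (0.085) and with only the 2 groups compared (0.0517). The call against control ended without control replicate 2, control replicate 3 or Sfpq-/- replicate 1, under both other filters and with only the 2 groups compared. Without Sfpq-/- replicate 3 the difference was 0.35 against Sfpq+/-, in place of 0.52.

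The 9 kept Cyp26b1 probe sets were all higher in Sfpq-/-, but by unequal amounts. Probe set 4527371 differed most, by 1.2, with 7.92, 7.85 and 7.89 on Sfpq-/- arrays, against 7.20, 6.15 and 6.73 on control arrays. Probe set 4614644 differed least, by 0.07, with 8.98, 8.69 and 9.08 on Sfpq-/- arrays, against 8.80, 8.71 and 9.04 on control arrays. The spread of the 9 differences (SD 0.39) exceeded that of the 6 Crabp2 differences (SD 0.27), which is given as a description. The positions of the probe sets within the gene were not used here.

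**Figure D3:**
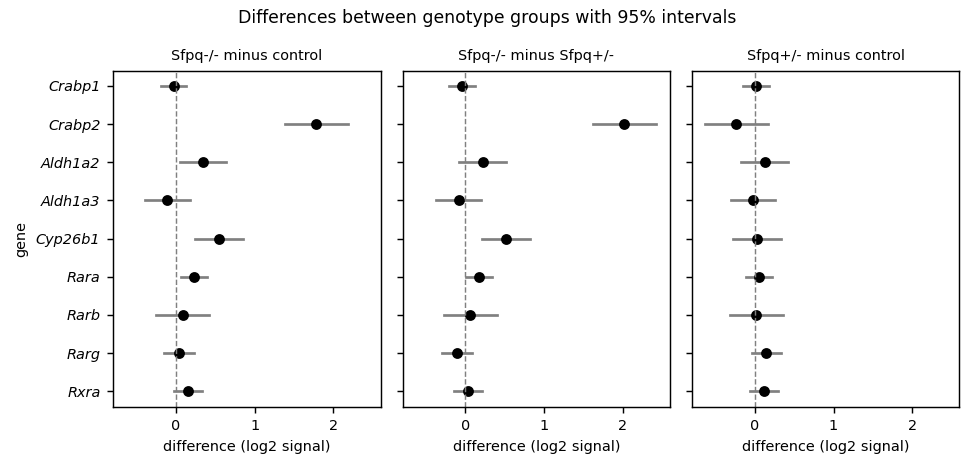
Difference between group means (x axis, log2 signal) of the 9 genes in Sfpq-/- minus control, Sfpq-/- minus Sfpq+/- and Sfpq+/- minus control, with 95% intervals from limma's fit as lines. Crabp2 stands at 1.78 and 2.02 in the comparisons of Sfpq-/- cortex, and every interval of Sfpq+/- minus control includes 0.

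Of the receptors, Rara, which mediates retinoic acid signals in most tissues, read 8.37, 8.16 and 8.24 on Sfpq-/- arrays, 8.11, 8.08 and 8.06 on Sfpq+/- arrays, and 8.05, 8.04 and 7.99 on control arrays. The Sfpq-/- arrays lay above both other groups, and the Sfpq+/- arrays narrowly above the controls. The difference was 0.23 (SE 0.07) against control, with 19 of 22 kept probe sets higher, and Rara was not among limma's calls there. Against Sfpq+/- it was 0.18, with a 95% interval from 0.01 to 0.34 (limma adjusted p = 0.191). With a stricter filter on dim probe sets, with array weights, and without Sfpq-/- replicate 2, Rara was called against control.

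Rarb read 8.51, 8.86 and 8.72 on Sfpq-/- arrays, 8.42, 8.55 and 8.94 on Sfpq+/- arrays, and 8.36, 8.71 and 8.78 on control arrays. The groups overlapped throughout, and in each the low array was replicate 1. The difference was 0.08 (SE 0.15) against control and 0.06 against Sfpq+/-, with a 95% interval against Sfpq+/- from -0.27 to 0.40 (limma adjusted p = 0.853). Its 13 kept probe sets lay between -0.07 and 0.34 in Sfpq-/- minus control. Rarb is the only one of the 9 genes that spans at least 500 kb in the RefSeq gene table of GRCm38.p6. Of 205 tested genes in that span class 119 were called lower and 1 higher in Sfpq-/- against control, with a median difference of -0.45, and 13 of the 205 had a larger difference than Rarb.

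Rarb is itself a known target of retinoic acid receptors, and its promoter is shown because it holds a match to the direct repeat to which these receptors are known to bind. The repeat was searched as any pair of 4 motifs with a spacer of NNNNN between them. The first motif searched was AGGTCA. The second motif searched was AGTTCA. The third motif searched was GGGTCA. The fourth motif searched was GGTTCA. Any of the 4 could stand at either side of the spacer. The search covered both strands, in RefSeq windows from 250 bases before to 50 after a transcription start (GRCm38.p6). It was found in 32 of 32851 windows (0.0974%). Of the 9 genes 7 had a window, 12 windows in all, and Crabp2 and Aldh1a3 had none in that table. Among those 12 windows Rarb's was the 1 with a match, on the strand of the gene, from base -53 to base -37 relative to the start. Among 43 windows of other retinoid genes 1 held it, that of Cyp26a1, a retinoic acid-degrading enzyme without a gene level here, on the opposite strand, from base -32 to base -16. In the lines below, capitals mark the matched motifs; the first line is the 250 bases before the Rarb start at chr14:16575477-16575726 (minus strand), and the others are the matched elements at chr14:16575513-16575529 and, read on its minus strand, chr19:37697776-37697792.
Rarb promoter: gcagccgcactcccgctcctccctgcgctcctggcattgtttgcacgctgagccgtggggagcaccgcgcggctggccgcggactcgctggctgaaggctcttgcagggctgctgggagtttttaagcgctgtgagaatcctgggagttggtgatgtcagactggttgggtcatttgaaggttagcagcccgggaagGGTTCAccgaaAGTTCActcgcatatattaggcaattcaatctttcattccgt
Rarb element: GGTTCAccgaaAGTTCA
Cyp26a1 element: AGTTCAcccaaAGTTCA
A match is a description of these letters, and no match says only that they are not in the window.

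Rarg, a receptor best known from skin and cartilage, read 7.65, 7.51 and 7.74 on Sfpq-/- arrays, 7.64, 7.73 and 7.86 on Sfpq+/- arrays, and 7.57, 7.63 and 7.59 on control arrays. Groups overlapped except that the Sfpq+/- arrays stood narrowly above the controls. Rxra, the common partner of all 3 receptors, read 9.13, 9.29 and 9.03 on Sfpq-/- arrays, 9.07, 9.11 and 9.16 on Sfpq+/- arrays, and 8.98, 9.04 and 8.98 on control arrays. Its Sfpq-/- and control arrays overlapped at a single pair, Sfpq-/- replicate 3 and control replicate 2. Their differences against control were 0.04 (SE 0.08) for Rarg and 0.15 (SE 0.08) for Rxra. Against Sfpq+/- they were -0.11 (95% interval from -0.29 to 0.08, limma adjusted p = 0.506) for Rarg and 0.04 (-0.14 to 0.21, limma adjusted p = 0.838) for Rxra.

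Sfpq-/- against Sfpq+/- thus gave 2 of the 9 genes among limma's calls, Crabp2 and Cyp26b1, where 11.8% of all genes were called (4.58% higher, 7.25% lower). The arrays of Crabp2, Cyp26b1 and Rara did not overlap there, all higher, against 26.9% of all genes (13.2% higher, 13.6% lower). Crabp2 is given there without a p-value, since its Sfpq-/- arrays chose the set. The contrast against control and this one share the Sfpq-/- arrays, and their values are therefore not independent.

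The comparison of the arrays labelled Sfpq+/- with control, in which Sfpq itself did not pass the test, was not used to choose the genes. It shares its control arrays with the contrast that was, so its values are not independent of that choice. None of the 9 passed limma's test, where 0% of all genes did, and none had an unadjusted p under 0.05, where 715 of 16854 genes had. The Crabp2 difference was -0.23 (95% interval from -0.64 to 0.17, limma adjusted p = 0.886), with an interval that includes 0. The other 8 differences lay within 0.14 of 0, the largest being that of Rarg (0.14, 95% interval from -0.04 to 0.33, limma adjusted p = 0.886). For Cyp26b1 the difference was 0.03, with a 95% interval from -0.28 to 0.33 (limma adjusted p = 0.977). The arrays of Rara, Rarg and Rxra did not overlap between Sfpq+/- and control, all higher, 3 of 9 genes against 12.5% of all genes (8.52% higher, 3.99% lower). The order of the group means of Crabp2 was thus Sfpq-/-, control and Sfpq+/-, with the last pair not told apart.

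Of 36 other genes of retinoid uptake, transport, synthesis, breakdown and reception, 30 had a level. In Sfpq-/- against control 2 rose and none fell, and 28 did not pass, with a median difference of 0.00, where 12.1% of all genes were called. Stra6, the cell-surface receptor that takes up retinol from its plasma carrier, rose 1.42-fold (log2 difference 0.51, SE 0.08, limma adjusted p = 0.00226). It read 9.79, 9.61 and 9.76 on Sfpq-/- arrays, 9.19, 9.32 and 9.33 on Sfpq+/- arrays, and 9.11, 9.22 and 9.31 on control arrays. The Sfpq-/- arrays lay above all others, and the call was kept under all 13 alternatives. Stra6 was also higher against Sfpq+/- (0.44, SE 0.08, limma adjusted p = 0.00512).

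Rxrg, a retinoid X receptor with restricted expression in the nervous system and muscle, rose by 0.52 (SE 0.15, limma adjusted p = 0.047) against control. It read 7.21, 6.89 and 7.52 on Sfpq-/- arrays, 6.47, 6.67 and 6.84 on Sfpq+/- arrays, and 6.82, 6.56 and 6.68 on control arrays. The lowest Sfpq-/- array stood only narrowly above the highest control. With single arrays left out the call was kept in 1 fit of 6, the one without Sfpq-/- replicate 2, and the difference ran from 0.36 to 0.68 (adjusted p up to 0.164). Taking the median over probe sets, Rxrg missed the threshold (0.30, adjusted p = 0.376). Against Sfpq+/- the difference was 0.55 (limma adjusted p = 0.0376), a call kept in 2 of 6 fits with 1 array left out.

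Against Sfpq+/- cortex 4 of the 30 passed, 2 higher (Stra6 and Rxrg) and 2 lower, where 11.8% of all genes were called. The lower ones were the receptor coactivator genes Ncoa1 (-0.40, limma adjusted p = 0.00607) and Ncoa2 (-0.41, limma adjusted p = 0.00588). The Ncoa2 call ended with the median over probe sets (-0.36, adjusted p = 0.0932). Against control they differed by -0.25 (adjusted p = 0.0721) and -0.26 (adjusted p = 0.0638). None of the 30 passed in Sfpq+/- against control in limma's test, with 4 at an unadjusted p under 0.05. The retinol dehydrogenase gene Rdh10, needed for retinal synthesis in the embryo, differed by 0.09 (limma adjusted p = 0.594) in Sfpq-/- against control. Dhrs3, which turns retinal back into retinol, differed by 0.11 (adjusted p = 0.61), and Rxrb by 0.02 (adjusted p = 0.893).

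**Figure D4:**
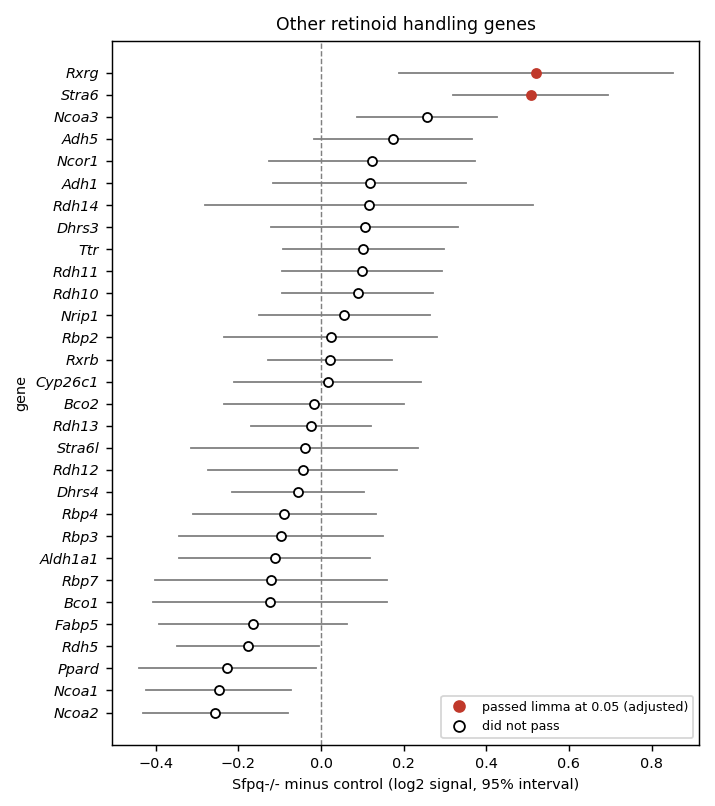
Sfpq-/- minus control difference (x axis, log2 signal) of the 30 other retinoid genes with 95% intervals from limma's fit; filled points passed the test after adjustment over all genes. Rxrg and Stra6 are the filled points, at 0.52 and 0.51, and the other 28 lie between -0.26 and 0.26.

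Of 30 genes known to respond to retinoic acid in various cells, 27 had a level, and 4 rose and 3 fell in Sfpq-/- against control, where 12.1% of all genes were called (5.98% higher, 6.12% lower). The median difference of the list was 0.10, against 0.03 over all genes. The homeobox gene Meis2 fell by 0.91 (SE 0.08, limma adjusted p = 3.66e-05), with 10.26, 10.44 and 10.28 on Sfpq-/- arrays, against 11.32, 11.15 and 11.22 on control arrays. Its relative Meis1 rose by 1.07 (SE 0.16, limma adjusted p = 0.00116), with 8.62, 8.72 and 8.74 on Sfpq-/- arrays, against 7.89, 7.53 and 7.44 on control arrays. Rai1, a chromatin-associated gene induced by retinoic acid, fell by 0.56 (limma adjusted p = 0.000359), and the zinc finger gene Zfp503 rose by 0.53 (limma adjusted p = 0.00147). The Sfpq-/- and control arrays did not overlap for any of these 4 genes, which were named for their small adjusted p. Over the 27 genes, 10 did not overlap and were higher and 4 did not overlap and were lower. Of all genes these shares were 16.1% and 10.8%. The list did not move in 1 direction, and its Hox members Hoxa2, Hoxa4, Hoxb1, Hoxb2 and Hoxb4 differed by 0.05, 0.20, 0.06, 0.07 and -0.03, none of which passed (limma adjusted p of 0.212 for Hoxa4 and of 0.815 or more for the others). Against Sfpq+/-, where 11.8% of all genes were called (4.58% higher, 7.25% lower), 6 of the 27 were higher and 4 lower. The higher ones included Gbx2 (0.78, limma adjusted p = 0.00241), whose mean was 8.55 on Sfpq-/- arrays, 7.77 on Sfpq+/- arrays and 8.17 on control arrays. Gbx2, which is also in the diencephalon list below, was not called against control (0.38, limma adjusted p = 0.0983). None of the 27 passed in Sfpq+/- against control in limma's test, with 4 at an unadjusted p under 0.05.

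The genes whose pattern over the 9 arrays was nearest to that of Crabp2 were found by the root mean square difference of levels, each gene centred on its own mean. They were Dlk1 (0.21), Calb1 (0.23), Samd3 (0.24), Rgs13 (0.27) and Pdlim3 (0.27). Dlk1 encodes a Delta-like membrane protein, Calb1 the calcium-binding protein calbindin, Rgs13 a regulator of G protein signalling and Pdlim3 a PDZ and LIM domain protein. Their Sfpq-/- minus control differences were 1.59 for Dlk1, 2.12 for Calb1, 1.5 for Samd3, 1.59 for Rgs13 and 1.52 for Pdlim3. Since the genes were picked for likeness to Crabp2, these differences are a description.

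**Figure D5:**
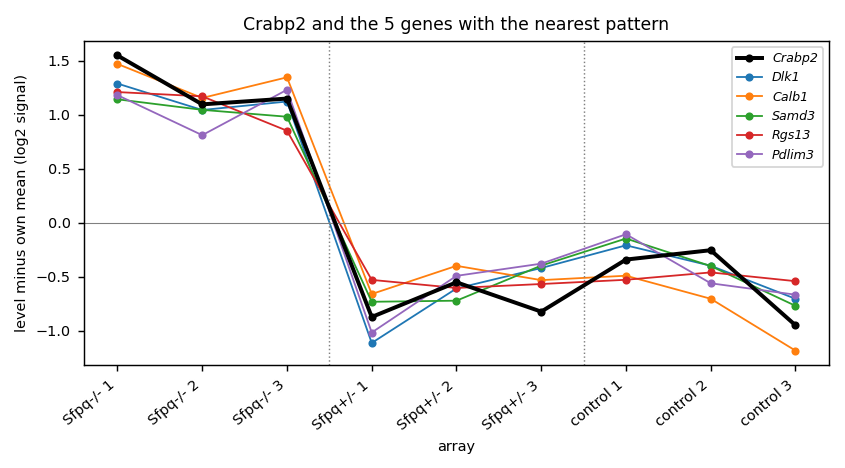
Level minus the gene's own mean (y axis, log2 signal) of Crabp2, in black, and of the 5 genes with the nearest pattern over the 9 arrays (x axis). All 6 lines are above 0 on the 3 Sfpq-/- arrays and below 0 on the other 6, and Calb1 departs from Crabp2 with Sfpq+/- (7.4) above control (7.14) in group means.

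Markers of other regions and cells were measured beside these genes, since retinoic acid genes are expressed outside the cortex too. The counts of each list stand against 12.1% of all genes called in Sfpq-/- against control, 5.98% higher and 6.12% lower. Of 13 diencephalon genes 4 rose and none fell in Sfpq-/- against control, Olig3 (3.08, limma adjusted p = 1.2e-05), Barhl2 (0.88), Tcf7l2 (0.81) and Lhx9 (0.54), the last not without Sfpq-/- replicate 1 (adjusted p = 0.0519), and the mean level of the list ran from 8.41 to 8.43 on Sfpq-/- arrays, 7.75 to 7.91 on Sfpq+/- arrays and 7.82 to 7.89 on control arrays. Of 10 Cajal-Retzius genes 7 rose and none fell, among them Lhx5 (1.02), Ebf2 (0.73), Calb2 (0.69) and Nhlh2 (0.41), with list means from 8.96 to 9.09 on Sfpq-/- arrays, 8.66 to 8.70 on Sfpq+/- arrays and 8.54 to 8.72 on control arrays. Without Sfpq-/- replicate 1, 4 of the 10 rose. Taking the median over probe sets, Nhlh2 differed by 0.06 and was not called (adjusted p = 0.83). Of 11 cortical genes 5 fell and none rose, among them Neurog2 (-0.92) and Fezf2 (-0.49), with list means from 10.33 to 10.41 on Sfpq-/- arrays, 10.64 to 10.73 on Sfpq+/- arrays and 10.56 to 10.60 on control arrays. Taking the median over probe sets, 2 fell and 1 rose. The part of these changes in the Crabp2 and Stra6 differences was not tested.

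Meningeal and mesenchymal markers, listed because the meninges make retinoic acid, gave 1 call, again beside 12.1% of all genes: of 16 none rose and Prrx1 fell (-0.50, limma adjusted p = 0.00563), and the list mean overlapped between groups, with 8.95 to 9.13 on Sfpq-/- arrays, 8.85 to 9.13 on Sfpq+/- arrays and 8.82 to 9.06 on control arrays. Of 15 ganglionic eminence and interneuron genes Ebf1 (0.62) and Gad1 (0.98) rose and Sst (-0.69) fell, with list means from 8.56 to 8.70 on Sfpq-/- arrays, 8.42 to 8.61 on Sfpq+/- arrays and 8.30 to 9.05 on control arrays. The Sst call was kept in 2 of 6 fits with 1 array left out, those without control replicate 3 or Sfpq-/- replicate 3. Of 16 dorsal midline and choroid plexus genes Foxj1 (0.55) and Rspo3 (0.32) rose, with list means from 9.07 to 9.20 on Sfpq-/- arrays, 8.91 to 9.13 on Sfpq+/- arrays and 8.99 to 9.11 on control arrays. The Rspo3 call was kept in 1 of 6 such fits, the one without Sfpq-/- replicate 3, with an adjusted p from 0.0592 to 0.109 in the other 5. Of 12 genes of the olfactory placode, skin ectoderm and neural crest Epcam (1.05) and Krt8 (0.52) rose and Eya1 (-0.36) fell, with list means from 7.60 to 7.72 on Sfpq-/- arrays, 7.34 to 7.52 on Sfpq+/- arrays and 7.39 to 7.54 on control arrays. The Krt8 call ended without control replicate 1, control replicate 2 or Sfpq-/- replicate 1 (0.38 to 0.53, adjusted p from 0.0695 to 0.0824). No gene of these lists was listed at 0.

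Xist, transcribed from the inactive X chromosome of female cells, was not balanced over the groups. It read 11.48 or more on Sfpq-/- replicate 1, control replicate 1 and control replicate 2, and 5.87 or less on the other 6 arrays. Crabp2 was highest on the high-Xist array of the Sfpq-/- group (11.47) and on both high-Xist arrays of the control group (9.57 and 9.66). Among the 6 low-Xist arrays alone, Crabp2 read at least 11.01 on the 2 Sfpq-/- arrays, at most 9.36 on the 3 Sfpq+/- arrays and 8.96 on the 1 control array. That control array is the lowest of its group. All 3 Sfpq+/- arrays (9.04 or more) stood above it and below both high-Xist control arrays. The part of the Xist imbalance in the Crabp2 differences of Sfpq-/- and Sfpq+/- from control was not tested.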

How the data were processed

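The deposited values are log2 signals per probe set, from 1 array per sample. According to the submitters' processing notes, the authors used Affymetrix Expression Console 1.2.0.20, and the design text adds the Exon Array Computational Tool. For background correction and normalization, the sources used here give no method. The log2 scale was read from the values, and no further normalization was applied.

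In the platform annotation 318760 probe sets had 1 symbol, 6684 had several and were not used, and 931387 had none there. Symbols were updated through unique RefSeq synonyms (3993 symbols). A probe set was kept where its mean over 9 arrays exceeded 5.64, the median of such means (628415 kept), and genes needed at least 3. All 9 arrays entered 1 model per gene or probe set, with 3 group means and no covariate, in limma 3.58.1 (R 4.3.3, lmFit and eBayes), with Benjamini-Hochberg adjustment over the whole table at 0.05 and 95% intervals from the same fit. Precision is limited by having 3 arrays per group: the median standard error of a gene difference was 0.10. The tests were checked on simulated data with noise drawn independently for each gene and array. Deviations shared between arrays were not simulated, so the check does not cover them.

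The members and all gene lists were chosen with earlier results of these data known. The text names the 9 members, Sfpq, in each list up to 4 called genes with the smallest adjusted p per contrast of Sfpq-/-, and the 5 genes nearest to Crabp2; Rdh10, Dhrs3, Rxrb, the Hox genes, Xist and Cyp26a1 were named outside that rule after their values were seen. Alternatives were another filter on dim probe sets, the median of probe sets, quantile normalization, array weights, only the 2 groups compared, the replicate number as a block, and leaving out each array. Promoter sequences are from RefSeq (GRCm38.p6).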

Additional observations from a re-analysis of the deposited data

How the results depend on the processing

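The Crabp2 difference between Sfpq-/- and control kept its sign under all 13 alternatives, from 1.56 to 1.91, and moved by less than the spread between arrays. In Sfpq-/- against control, 2040 genes, 11007 probe sets and 2 other retinoid genes were called. Array weights, estimated gene by gene, gave 4609 genes, 17934 probe sets and 6 other retinoid genes. No filter gave 7161 probe sets, only the 2 groups compared 5837 probe sets and 1 other retinoid gene, a stricter filter and quantile normalization 4 other retinoid genes each, and the median of probe sets 1. Leaving out 1 array gave 1311 to 2453 genes (1343 without control replicate 2 and 1311 without Sfpq-/- replicate 1), 5594 to 9077 probe sets and 1 to 3 other retinoid genes. In Sfpq-/- against Sfpq+/-, 1994 genes, 12108 probe sets and 4 other retinoid genes were called, against 3635, 20038 and 7 with array weights, 2 other retinoid genes with the median of probe sets, and 1397 to 2267 genes, 6091 to 10824 probe sets and 3 to 5 other retinoid genes with 1 array left out. In Sfpq+/- against control, where limma called 0 genes, a stricter filter called 1 and leaving out 1 array 0 to 1. The cause of these shifts was not tested. The labels tie no replicate number to a litter. Same-numbered arrays deviated together with r over 0.1 in 5 of 9 pairs (-0.06 to 0.57). For replicate 3 the values were 0.57, 0.31 and 0.30. Whether the numbers pair the samples is therefore not settled. With the replicate number as a block, 2469 genes, 10756 probe sets and 2 other retinoid genes were called in Sfpq-/- against control, 2367, 11856 and 6 in Sfpq-/- against Sfpq+/-, and 0 in Sfpq+/- against control. In 5 of 9 cases an array correlated best with its own number.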
